A study of Rattus norvegicus with 8 samples.

Results

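Thyroid hormone acts inside a cell through deiodinases, which set the amount of active hormone, and through nuclear receptors, which carry it to its target genes. The 7 genes described here are the deiodinases Dio1, Dio2, and Dio3, the receptor genes Thra and Thrb, and the hormone-responsive genes Hr and Thrsp. They were taken by symbol from the deposited table of 30560 rat gene identifiers, and for each gene the transcript with the highest summed count was used. Their identifiers in the table are ENSRNOG00000061237 (Dio1), ENSRNOG00000062383 (Dio2), ENSRNOG00000052017 (Dio3), ENSRNOG00000009066 (Thra), ENSRNOG00000006649 (Thrb), ENSRNOG00000011427 (Hr), and ENSRNOG00000012404 (Thrsp). RNA-Seq was performed on the thyroid of 8 male Wistar rats, 2 in each of 4 groups. At the age designated 1 week, which the study's methods give as slightly less, rats received sham treatment (1w0Gy) or 4 Gy of X-rays to the neck (1w4Gy), and 4m0Gy and 4m4Gy are the same treatments at 4 months. The thyroids were taken about 8 weeks later, so the age groups also differed in age at collection, and age at treatment, age at collection, and cohort cannot be told apart. The study chose the RNA samples with the higher integrity numbers within each group.

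The deiodinases are selenoenzymes of the cell membranes. Dio1, abundant in thyroid, liver, and kidney, and Dio2, known from brown fat, brain, and pituitary, remove the outer-ring iodine of thyroxine (T4) and so produce the active hormone triiodothyronine (T3), whereas Dio3 removes an inner-ring iodine and inactivates both. T3 binds the receptors encoded by Thra and Thrb, which sit on DNA with retinoid X receptors and exchange corepressors for coactivators. Hr encodes the corepressor hairless, a T3-induced gene of brain and skin, and Thrsp encodes Spot 14, a T3-responsive factor of lipid synthesis in liver and fat.

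Counts on genes were between 14835400 and 18138102 per sample. Expression is given as CPM, counts relative to a common library size after TMM scaling. The test was the quasi-likelihood F test of edgeR, p-values were adjusted by the Benjamini-Hochberg method over all genes, and an adjusted p under 0.05 counted as a call. The samples of a group are RNA of different rats, according to the study's methods. Thyroglobulin (Tg), the hormone precursor, was between 182445 and 216346 CPM in all samples, and the iodide transporter Slc5a5 and the transcription factor Pax8 were high throughout. Of the 10 thyrocyte markers, Slc26a4 (pendrin) was at most 0.388 CPM. Cdkn1a, the p53-induced cell cycle inhibitor taken as a check of the irradiation labels, was between 14.3 and 17.4 CPM in the sham samples and between 38.1 and 46.5 CPM in the irradiated ones. Parathyroid RNA was uneven, with 3 parathyroid markers summing to 343 CPM in 4m4Gy replicate 2 and to between 1939 and 5478 CPM elsewhere.

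The difference that passed the test was one of age and concerned Dio2. Dio2 was about 3-fold lower in the rats treated at 4 months than in those treated at 1 week, with or without irradiation. Dio1 stood higher in all 4m samples than in all 1w samples, but the difference did not pass the adjusted threshold, and Dio3, with few counts, had the same order of ages. Thra, Thrb, and Hr had overlapping levels at both ages, and no member was called for irradiation at either age.

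**Figure D1:**
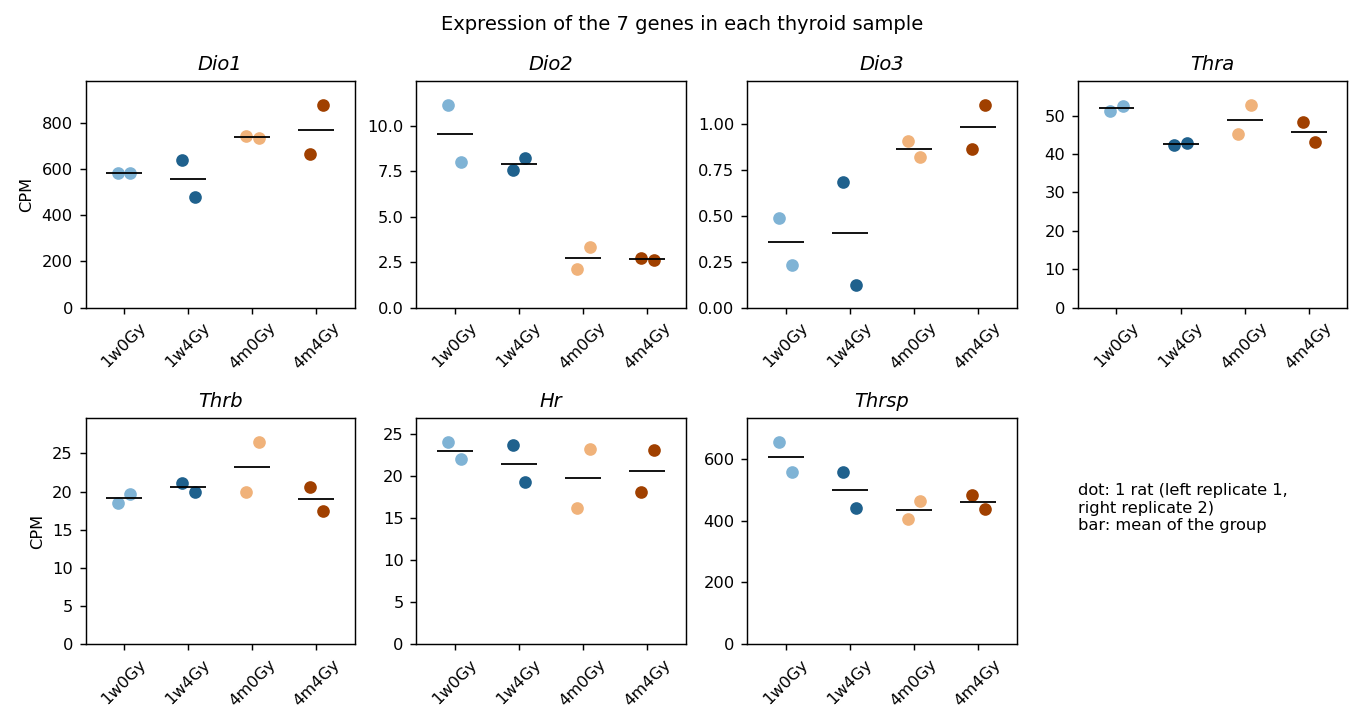
CPM (scaled counts, linear axis from 0) of each of the 7 genes in the 8 thyroid samples. Each dot is 1 rat, replicate 1 on the left and replicate 2 on the right, and the bar is the mean of the group's 2 samples. The Dio2 dots lie between 7.58 and 11.1 CPM at 1 week and between 2.13 and 3.34 CPM at 4 months.

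Levels can be compared between genes only per transcript length. On the scale of CPM per kilobase, Dio1 had a mean of 318 over the 8 samples (range 229 to 420) and Thrsp a mean of 263 (range 214 to 344), and these ranges overlapped. Thra followed with a mean of 16.4 CPM per kilobase (range 14.7 to 18.3) and overlapped with no other member. Hr (mean 3.77, range 2.87 to 4.27) and Thrb (mean 3.41, range 2.91 to 4.41) overlapped with each other, as did Dio2 (mean 0.906, range 0.338 to 1.76) and Dio3 (mean 0.714, range 0.135 to 1.21), all in CPM per kilobase. The transcript of Dio3 in the table is 912 bases long and that of Dio2 6300 bases, so the CPM of the pair differ more than their levels per length. Over the 8 samples the coefficient of variation of the CPM was 59.7% for Dio2 and 52.6% for Dio3, and between 9.52% and 18.4% for the other 5 genes.

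**Figure D2:**
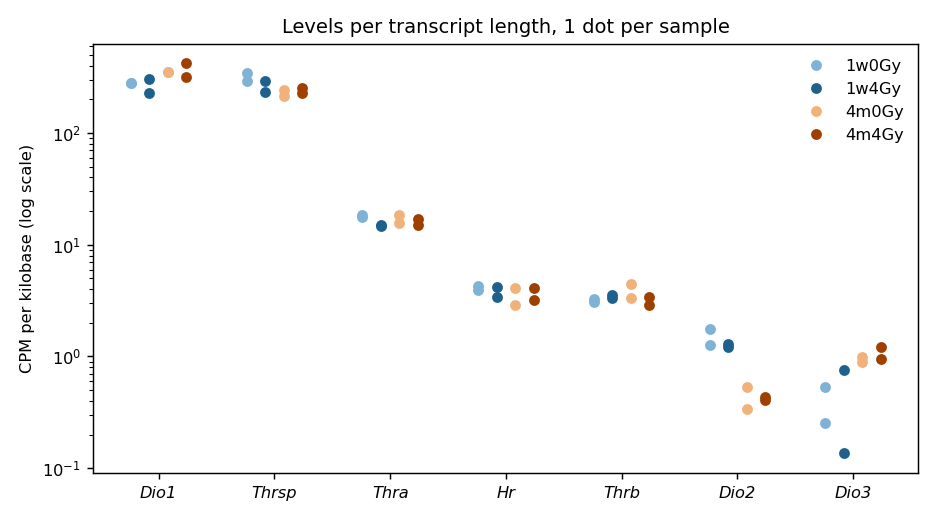
Levels of the 7 genes in CPM per kilobase of transcript (log scale), ordered by their mean, with 1 dot per sample and the 4 groups in different colours. Dio1 and Thrsp lie above 200 CPM per kilobase, Thra near 16.4, Hr and Thrb near 4, and Dio2 and Dio3 at or under 1.76, where Dio2 is the higher of the pair in each 1w sample and Dio3 in each 4m sample.

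The promoters of the deiodinase genes are shown because Dio2 was the called member and Dio1 and Dio3 are the genes that share its substrates. RefSeq promoter windows of assembly GRCr8, 250 bases before to 50 bases after the annotated start, were found for 6 of the 7 members, and Hr was not matched. Each is printed 5′ to 3′ on the strand of its gene. Capitals mark a TATA box (TATAAA) or a CCAAT box (CCAAT, or ATTGG where it reads on the other strand).

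Dio1, chr5:127319735-127320034, strand -: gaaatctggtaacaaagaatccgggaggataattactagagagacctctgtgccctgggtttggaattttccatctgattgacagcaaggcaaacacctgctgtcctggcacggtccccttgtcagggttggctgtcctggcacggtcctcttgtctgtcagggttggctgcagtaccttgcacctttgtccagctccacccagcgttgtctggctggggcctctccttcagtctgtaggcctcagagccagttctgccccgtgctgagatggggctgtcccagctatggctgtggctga
Dio2, chr6:115410545-115410844, strand -: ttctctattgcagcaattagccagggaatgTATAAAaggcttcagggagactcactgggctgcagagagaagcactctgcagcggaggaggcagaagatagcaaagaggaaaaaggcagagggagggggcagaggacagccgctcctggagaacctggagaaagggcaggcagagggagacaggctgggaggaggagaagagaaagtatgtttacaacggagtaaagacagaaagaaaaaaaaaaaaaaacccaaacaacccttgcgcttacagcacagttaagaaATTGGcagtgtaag
Dio3, chr6:135106822-135107121, strand +: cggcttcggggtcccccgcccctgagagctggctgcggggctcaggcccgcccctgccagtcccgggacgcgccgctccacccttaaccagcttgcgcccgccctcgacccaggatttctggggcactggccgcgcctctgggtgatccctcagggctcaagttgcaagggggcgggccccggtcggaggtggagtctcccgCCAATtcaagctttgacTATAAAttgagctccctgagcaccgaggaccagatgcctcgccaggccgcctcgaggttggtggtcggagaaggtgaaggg

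The Dio2 window held TATAAA 220 bases before the annotated start and a CCAAT box on the opposite strand 36 bases after it. The Dio3 window held TATAAA 31 bases and CCAAT 48 bases before the start, and the Dio1 window held neither. Searched on both strands, TATAAA was in 14.2% and CCAAT in 37.5% of all 33469 promoters of that length. The receptor half-site AGGTCA was in 16.2% of the promoters, its direct repeat with 4 free bases (DR4) in 0.00598%, and the cAMP response element TGACGTCA in 1.83%, and none of these letters was in the windows of the 6 matched members. These matches describe the windows only.

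Dio1 was the most abundant deiodinase. It was at 585 and 584 CPM (1w0Gy), 641 and 477 (1w4Gy), 743 and 734 (4m0Gy), and 667 and 876 (4m4Gy). Every 4m sample lay above every 1w sample, and the irradiated samples spread around the sham samples at both ages. Over both doses the log2 fold change from 1 week to 4 months was 0.40 (SE 0.11, 95% interval 0.17 to 0.64, 1.32-fold), for which edgeR gave an adjusted p of 0.0591. In the sham groups alone it was 0.34 (SE 0.07, interval 0.17 to 0.50), with an adjusted p of 0.0784. The DESeq2 Wald test called both differences, with adjusted p of 0.00433 and 0.0153, and the edgeR test called the first one without 1w4Gy replicate 1 (log2 fold change 0.48, adjusted p 0.0495).

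Dio2 was at 11.1 and 7.98 CPM (1w0Gy), 7.58 and 8.21 (1w4Gy), 2.13 and 3.34 (4m0Gy), and 2.72 and 2.59 (4m4Gy). The lowest 1w sample was thus above the highest 4m sample, and within an age the irradiated samples lay between or near the sham samples. The raw counts behind these values were between 122 and 206 at 1 week and between 33 and 57 at 4 months. Over both doses Dio2 fell by 1.69 on the log2 scale (SE 0.18, interval -2.08 to -1.29, 3.22-fold), for which edgeR gave an adjusted p of 0.000842, rank 21 by p among 15684 genes. It was the 1 called member of 7, where 4.27% of all genes were called. The call held under all 16 alternatives, with adjusted p between 2.67e-12 and 0.0051.

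In the sham groups alone Dio2 fell by 1.79 (SE 0.28, interval -2.44 to -1.15, 3.47-fold, adjusted p 0.0404, edgeR), again the 1 called member of 7 beside 1.06% of all genes. That call held under 9 of 14 alternatives, with adjusted p between 7.46e-05 and 0.18 and a log2 fold change between -2.17 and -1.52. It was lost without 1w0Gy replicate 1 (log2 fold change -1.54, adjusted p 0.18), without 1w0Gy replicate 2 (-2.01, adjusted p 0.0864), with the counts summed over transcripts (adjusted p 0.0838), with the replicate number as a block although the numbers did not pair the samples (adjusted p 0.115), and without edgeR's robust setting (adjusted p 0.0549). The sham comparison and that over both doses share the sham samples.

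Dio3 was near the limit of detection. Its raw counts were 9 and 4 (1w0Gy), 11 and 2 (1w4Gy), 14 and 14 (4m0Gy), and 13 and 17 (4m4Gy), and its levels were 0.485, 0.231, 0.683, 0.124, 0.904, 0.821, 0.862, and 1.10 CPM in the same order. Each 4m sample exceeded each 1w sample. It passed the filter on low counts in the comparisons with age through the 4m groups, where it was high, and was not tested for irradiation at 1 week. With at least 10 counts required in every sample it was not tested in any comparison with age. Its log2 fold change with age, 1.25 over both doses (SE 0.43) and 1.23 in the sham groups (SE 0.51), is therefore given as a description with no test.

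The balance of the activating enzymes was compared as the ratio of Dio1 to Dio2 reads per kilobase, which needs no library size. It was 159 and 221 (1w0Gy), 255 and 175 (1w4Gy), 1052 and 662 (4m0Gy), and 740 and 1022 (4m4Gy). The 4m samples did not overlap with the 1w samples, and the mean log2 ratio differed by 2.10 (4.28-fold). The two-sided exact permutation test gave p = 0.0286, the smallest that 70 splits of 8 samples allow, and 0.114 after adjustment over the 4 ratio tests. Between 4 Gy and 0 Gy this ratio differed by 0.12 on the log2 scale (exact permutation p = 0.8).

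Thra, the more abundant receptor gene, was at 51.2 and 52.6 CPM (1w0Gy), 42.3 and 42.8 (1w4Gy), 45.2 and 52.7 (4m0Gy), and 48.4 and 43.0 (4m4Gy). The samples irradiated at 1 week lay below their sham samples, by a log2 fold change of -0.29 (SE 0.085, interval -0.48 to -0.09), which ranked 179 of 15359 genes by p (unadjusted p 0.0101) with an adjusted p of 0.851 by edgeR. At 4 months the groups overlapped and the log2 fold change was -0.10 (interval -0.33 to 0.13), and the difference between the ages in this response was 0.19 (SE 0.13, adjusted p 0.721). With age over both doses it differed by 0.01 (interval -0.15 to 0.17).

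Thrb was at 18.5 and 19.7 CPM (1w0Gy), 21.2 and 19.9 (1w4Gy), 19.95 and 26.5 (4m0Gy), and 20.6 and 17.5 (4m4Gy). The ages overlapped, and 1 sample, 4m0Gy replicate 2, stood above the others. For irradiation at 4 months the log2 fold change of Thrb was -0.29 (SE 0.16, interval -0.66 to 0.07, adjusted p 0.674 in edgeR's test), and it was -0.08 without that sample. The ratio of Thra to Thrb reads per kilobase was between 4.15 and 5.78 and differed by -0.07 on the log2 scale between ages and by -0.10 between doses (exact permutation p = 0.629 and 0.457).

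In the RefSeq annotation Thra overlaps Nr1d1 and Med24, both on the opposite strand. The study's methods name a directional library kit, but the strand setting of the counting is not given in the sources used here, so reads from the overlap cannot be told apart. Nr1d1, which encodes the clock repressor REV-ERBα, was between 33.9 and 43.8 CPM in the 1w samples and between 83.5 and 107 CPM in the 4m samples. It rose with age by 1.24 (SE 0.11, adjusted p 0.000453, edgeR), while Thra differed by 0.01. Med24 was between 80.1 and 86.6 CPM. Thrb overlaps 8 annotated loci, 6 of them on the opposite strand and the other 2 pseudogenes, Hr overlaps Hrurf, and the deiodinase genes and Thrsp overlap none.

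Hr was at 23.999 and 21.9 CPM (1w0Gy), 23.6 and 19.3 (1w4Gy), 16.1 and 23.2 (4m0Gy), and 18.1 and 23.1 (4m4Gy). The groups overlapped, and the 4m0Gy samples alone covered 16.1 to 23.2 CPM. The log2 fold change with age over both doses was -0.14 (interval -0.42 to 0.15) and that with irradiation over both ages was -0.02 (interval -0.30 to 0.27).

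Thrsp was at 654 and 557 CPM (1w0Gy), 557 and 442 (1w4Gy), 406 and 464 (4m0Gy), and 484 and 436 (4m4Gy). The 1w0Gy samples were the highest, and the other 3 groups overlapped. In the sham groups the log2 fold change with age was -0.48 (SE 0.11, interval -0.73 to -0.23), for which edgeR gave an adjusted p of 0.0908. The adjusted p was 0.00473 in the DESeq2 Wald test, and in edgeR it was 0.0182 without 4m0Gy replicate 2 (log2 fold change -0.58). Over both doses it was -0.30 (SE 0.11, adjusted p 0.145), and without 1w4Gy replicate 2 it was -0.39 (adjusted p 0.0296). For irradiation at 1 week it was -0.28 (SE 0.14, interval -0.60 to 0.05, adjusted p 0.883), and at 4 months 0.08 (SE 0.091, interval -0.13 to 0.28).

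**Figure D3:**
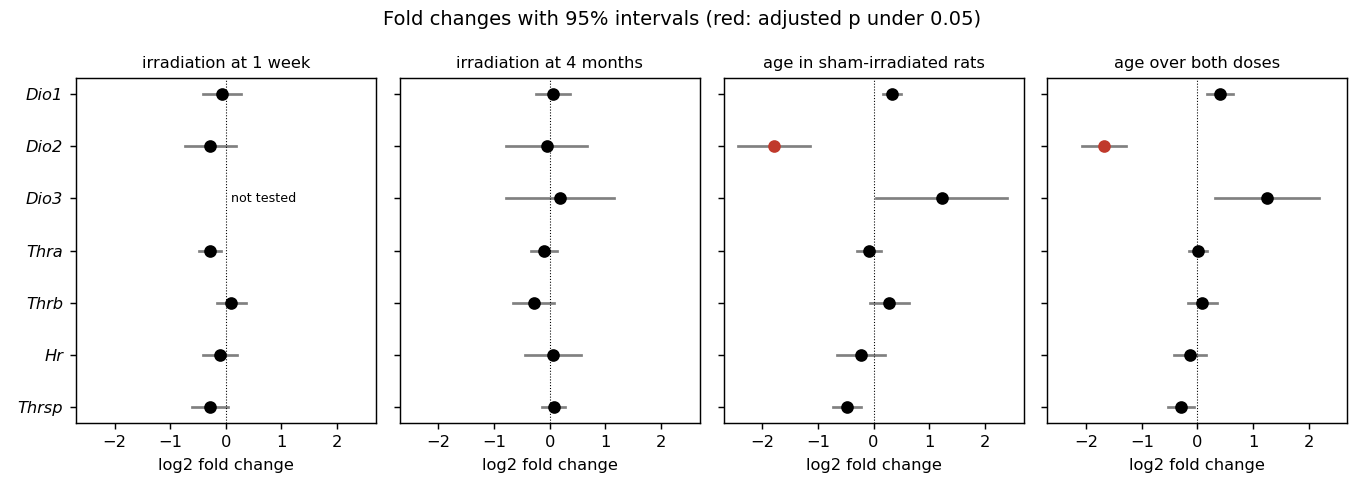
Log2 fold changes of the 7 genes (dots) with 95% intervals (lines) from edgeR, for 4 Gy against 0 Gy at each age and for 4 months against 1 week in the sham samples and over both doses. Red marks an adjusted p under 0.05, which is Dio2 in both age panels, at -1.79 and -1.69. Dio3 was not tested for irradiation at 1 week, and in the age panels its values are a description, since it passed the filter through the 4m groups.

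For irradiation at 1 week, 0 of 6 members tested were called in edgeR's test, beside 0.00651% of all genes, and 1 member, Thra, was under an unadjusted p of 0.05, beside 5.68% of all genes. The groups did not overlap for 3 of the 6 (Thra, Thrb, and Thrsp, the last by less than 1 CPM), as was the case for 35.5% of all genes. For irradiation at 4 months, 0 of 7 were called beside 0.0197% of all genes, 0 were under an unadjusted p of 0.05 beside 8.39% of all genes, and 0 of 7 did not overlap beside 39.6%. Over both ages 0 of 7 were called beside 0.0128% of all genes, 1 (Thra, log2 fold change -0.19, SE 0.072) was under an unadjusted p of 0.05 beside 3.89%, and 0 of 7 did not overlap beside 1.54%. For the interaction of age and irradiation 0 of 7 were called beside 0.0% of all genes, and 0 were under an unadjusted p of 0.05 beside 9.12%. The DESeq2 Wald test also called 0 members in each of these 4 comparisons. The intervals left room for changes of moderate size, for example from -0.74 to 0.19 on the log2 scale for Dio2 at 1 week and from -0.78 to 0.67 at 4 months.

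With age, Dio3 is left out of the counts because of its filter. In the sham groups 4 of the 6 other members did not overlap (Dio1, Dio2, Thrb, and Thrsp), beside 50.2% of all genes, and over both doses 2 of 6 (Dio1 and Dio2), beside 12.8%. In each comparison 3 of 6 members (Dio1, Dio2, and Thrsp) were under an unadjusted p of 0.05, beside 17.8% and 20.5% of all genes. The median absolute log2 fold change over both doses was 0.22 for the 6 members and 0.12 for all genes tested.

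The deiodinases share a synthesis route, since selenocysteine is inserted by a dedicated machinery. Of 7 selenoprotein synthesis genes, 0 were called with age over both doses in edgeR's test, beside 4.27% of all genes. Under an unadjusted p of 0.05 there was 1 of the 7, beside 20.5% of all genes. Their summed level was between 226 and 246 CPM in all 8 samples. The members that differed most were Sephs2, which makes selenophosphate, at 0.22 (SE 0.064, adjusted p 0.0805), and Trnau1ap, a selenocysteine tRNA-associated protein, at -0.12 (SE 0.064, adjusted p 0.339). Of the enzymes that attach ubiquitin to the Dio2 protein or remove it, 5 of 6 had a row, with a sum between 404 and 423 CPM. Over both doses 0 were called or under an unadjusted p of 0.05 in edgeR's test, beside 4.27% and 20.5% of all genes. Those that differed most were the ligase Marchf6 at 0.11 (SE 0.058) and the deubiquitinase Usp33 at -0.10 (SE 0.052), each with an adjusted p of 0.303. In the sham groups 0 of the 5 were called by edgeR, beside 1.06% of all genes. Under an unadjusted p of 0.05 were 3, beside 17.8%, namely Marchf6 at 0.17, Usp20 at 0.19, and Ube2j1 at -0.16.

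Of 18 receptor partners and coregulators, 17 were tested and 1 was called with age over both doses, beside 4.27% of all genes. Rxrg, the retinoid X receptor of muscle and fat, was at 2.37 and 2.84 CPM (1w0Gy), 2.17 and 1.30 (1w4Gy), 0.452 and 1.58 (4m0Gy), and 0.531 and 0.712 (4m4Gy). It fell by 1.39 (SE 0.35, adjusted p 0.0478, edgeR), although 4m0Gy replicate 2 was above 1w4Gy replicate 2. The other 16 were not called, with a list median of -0.004 beside -0.002 for all genes. The retinoid X receptors Rxra and Rxrb differed by -0.03 (SE 0.10) and -0.06 (SE 0.056). The corepressor Ncor1 differed by -0.02 (SE 0.067). In the sham groups 14 of 17 were above 0 with age (median 0.12, beside 0.0 for all genes) and 0 were called by edgeR, beside 1.06% of all genes. Of these 17, 6 were under an unadjusted p of 0.05 in that test, beside 17.8% of all genes. For irradiation at 4 months 2 of 17 were above 0 (median -0.16, beside 0.009), and for irradiation at 1 week 11 of 17 (median 0.05, beside 0.0). For the interaction 1 of 17 was above 0 (median -0.17, beside 0.016). In the same order edgeR called 0 in each, beside 0.0197%, 0.00651%, and 0.0% of all genes. Under an unadjusted p of 0.05 in edgeR's test were 6, 2, and 7, beside 8.39%, 5.68%, and 9.12% of all genes. These comparisons share samples.

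Of 18 other genes known to respond to thyroid hormone, 16 were tested and 3 were called with age over both doses, beside 4.27% of all genes. Cpt1a, the gate of mitochondrial fatty acid oxidation, rose by 0.43 (SE 0.084, adjusted p 0.0181), from between 40.0 and 54.6 CPM to between 63.2 and 68.2 CPM, and it was also called in the sham groups (log2 fold change 0.42, adjusted p 0.0475). Atp2a2, the calcium pump of the endoplasmic reticulum, fell by 0.43 (SE 0.084, adjusted p 0.0186), from between 367.9 and 479 CPM to between 284 and 332 CPM. Ucp3, a mitochondrial carrier of muscle and brown fat, fell by 1.26 (SE 0.31, adjusted p 0.0454), with overlapping groups. The list had a median of -0.20 beside -0.002 for all genes, and 5 of 16 were above 0. Under an unadjusted p of 0.05 in edgeR's test were 9 of the 16, beside 20.5% of all genes.

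Klf9, an immediate T3-induced transcription factor, was at 115 and 116 CPM (1w0Gy), 166 and 165 (1w4Gy), 138 and 144 (4m0Gy), and 159 and 152 (4m4Gy). The irradiated samples lay above the sham samples at both ages, by a log2 fold change of 0.52 at 1 week (SE 0.081, unadjusted p 0.00023, adjusted p 0.398 in edgeR's test) and of 0.14 at 4 months (SE 0.073, adjusted p 0.665). It was singled out after its values were seen. For irradiation at 1 week the targets that differed most were Pck1 at -0.91 (SE 0.12, adjusted p 0.285) and Ucp3 at -0.70 (SE 0.28, adjusted p 0.875). By edgeR 0 of 16 were called, beside 0.00651% of all genes, and 4 were under an unadjusted p of 0.05, beside 5.68%. In this comparison the 8 white adipocyte markers described below were also all lower (median -0.64). Of these 8, 0 were called and 8 were under an unadjusted p of 0.05 in edgeR's test.

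Among genes that bind or conjugate the hormone, 5 of 7 had a row. With age over both doses 1 of these 5, the phenol sulfotransferase Sult1a1, was called, beside 4.27% of all genes. In the sham groups it was the 1 called of 4 tested, beside 1.06% of all genes. Sult1a1 fell with age by 0.52 both over both doses (SE 0.11, adjusted p 0.0295) and in the sham groups (SE 0.083, adjusted p 0.0419, edgeR). It was between 31.0 and 46.7 CPM at 1 week and between 25.5 and 28.9 CPM at 4 months. The cytosolic T3-binding protein Crym was between 1.23 and 2.195 CPM in the sham samples and between 2.59 and 3.04 CPM in the irradiated ones. For irradiation over both ages its log2 fold change was 0.75 (SE 0.22, unadjusted p 0.00557, adjusted p 0.999, edgeR), so it was not called. Of all genes 1.54% did not overlap in that comparison. The plasma carrier Ttr varied from 0.904 to 11.1 CPM within groups as well as between them.

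In bulk thyroid, fewer cells of a type and less RNA per cell cannot be told apart, and Dio2, Thrsp, and several of the targets are also known from fat and muscle. With age over both doses 3 of the 8 white adipocyte markers (Adipoq, Lpl, and Retn) were called lower, beside 4.27% of all genes called. The 8 white adipocyte markers summed to 686 and 567 CPM (1w0Gy), 388 and 424 (1w4Gy), 249 and 417 (4m0Gy), and 281 and 208 (4m4Gy). The 5 brown adipocyte markers with a row summed to 81.5 and 60.5, 51.3 and 28.9, 19.4 and 75.9, and 19.9 and 20.8 CPM in the same order, and of them Elovl3 was at most 0.0647 CPM. Of 9 thyrocyte markers tested in the same comparison 1 was called, the TSH receptor gene Tshr (log2 fold change -0.28, SE 0.066, adjusted p 0.0368, edgeR), beside 4.27% of all genes. Of 4 C cell markers 1 was called, the calcitonin gene Calca (log2 fold change 1.19, SE 0.22, adjusted p 0.0262, edgeR). The C cell markers Chga, Scg2, and Ret were not called (-0.02, -0.18, and 0.24). The hemoglobin gene Hba-a2 was between 457 and 567 CPM at 1 week and between 291 and 387 CPM at 4 months. The part of these cell types in the fall of Dio2 was not tested.

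Over the 8 samples Pearson's r of the log2 levels with Dio2 was 0.87 for the white adipocyte sum, 0.89 for each of the lipogenic genes Scd and Fasn, 0.73 for the brown fat uncoupling protein Ucp1, and -0.17 for the skeletal muscle sum. These are descriptions over samples that share 2 age groups, and no r was computed for the brown adipocyte sum. With age over both doses the log2 fold change was -1.51 for Ucp1 (SE 1.05) and -0.84 for Cidea (SE 0.39). For the other brown adipocyte markers tested it was 0.44 for Cox7a1 (SE 0.23) and -0.0041 for Ppargc1a (SE 0.16). Of the 4 tested, 0 were called by edgeR, beside 4.27% of all genes. Ucp1 was at 43.5 and 25.4 CPM (1w0Gy), 19.2 and 6.36 (1w4Gy), 1.55 and 39.2 (4m0Gy), and 1.19 and 2.01 (4m4Gy). Of the 4m samples, 4m0Gy replicate 2 had the highest Ucp1 and the highest Dio2, at 3.34 CPM. The lowest Dio2 of the 1w samples was 7.58 CPM. Without 4m0Gy replicate 2 Dio2 fell by 1.79 on the log2 scale over both doses, against 1.69 with it. These values rest on 1 sample, and the part of brown fat in the level of Dio2 was not tested. The 7 skeletal muscle markers with a row summed to between 7.16 and 98.1 CPM and differed several-fold between the replicates of every group.

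Thrsp was read beside the lipogenic enzymes Fasn (fatty acid synthase) and Scd (stearoyl-CoA desaturase). Fasn was at 759 and 590 CPM (1w0Gy), 534 and 588 (1w4Gy), 251 and 545 (4m0Gy), and 221 and 226 (4m4Gy). Scd was at 2573 and 1832 CPM (1w0Gy), 1512 and 1473 (1w4Gy), 318 and 1520 (4m0Gy), and 370 and 311 (4m4Gy). Pearson's r of the log2 levels with Thrsp over the 8 samples was 0.80 for the white adipocyte sum, 0.72 for Scd, 0.71 for Ucp1, and 0.67 for Fasn, again as a description. Within the 4m samples both enzymes and the adipocyte sum were highest in 4m0Gy replicate 2, and Thrsp was highest in 4m4Gy replicate 1, at 484 CPM, and at 464 CPM in 4m0Gy replicate 2. The part of fat cells in the level of Thrsp was not tested. With age over both doses the log2 fold change was -1.04 for Fasn (SE 0.26, adjusted p 0.0851) and -1.69 for Scd (SE 0.53, adjusted p 0.159), against -0.30 for Thrsp.

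**Figure D4:**
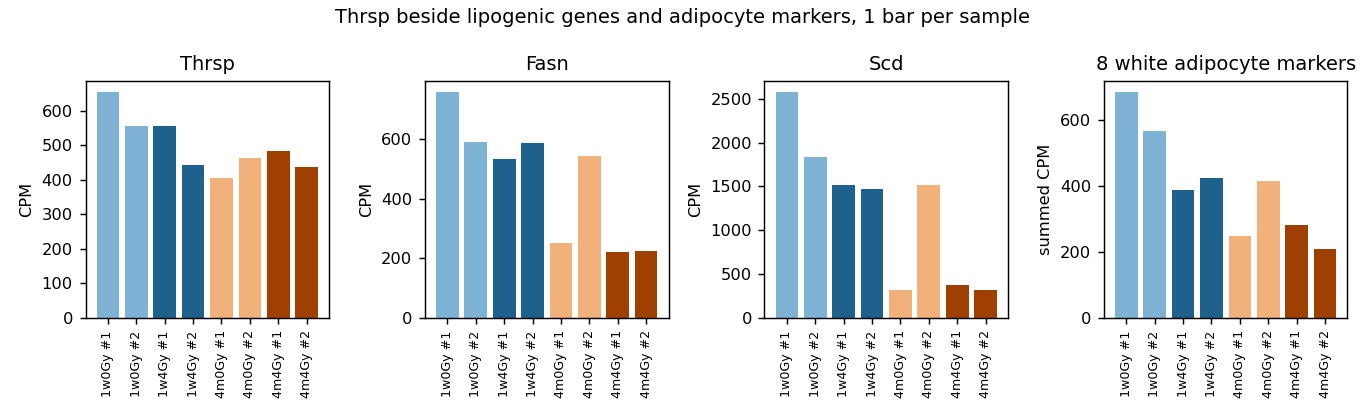
CPM of Thrsp, Fasn, and Scd, and the summed CPM of 8 white adipocyte markers, with 1 bar per sample and linear axes from 0. In 4m0Gy replicate 2 Fasn, Scd, and the adipocyte sum are at 545, 1520, and 417 CPM, above the other 4m samples, while Thrsp is at 464 CPM.

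The genes with the most similar pattern were found by Pearson's r of the log2 CPM over the 8 samples, among 13055 genes. Because the samples fall into age groups, r reflects mainly the age difference for a gene such as Dio2, and it is given as a description. The genes most like Dio2 were Gpm6b (r 0.993), a membrane proteolipid, Adamts2 (r 0.992), which processes procollagen, and Col1a2 (r 0.989), a collagen chain. Col1a2 was between 399 and 545 CPM at 1 week and between 107 and 150 CPM at 4 months, and fell by 1.83 over both doses (SE 0.12, adjusted p 0.000194, edgeR). Within the 4m samples all 4 genes were lowest in 4m0Gy replicate 1, for Adamts2 at 6.78 CPM against 6.79 CPM in 4m4Gy replicate 2. Within the 1w samples they were highest in 1w0Gy replicate 1. The 3 genes were chosen for their likeness to Dio2 over these same samples, so the shared order is no separate evidence.

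**Figure D5:**
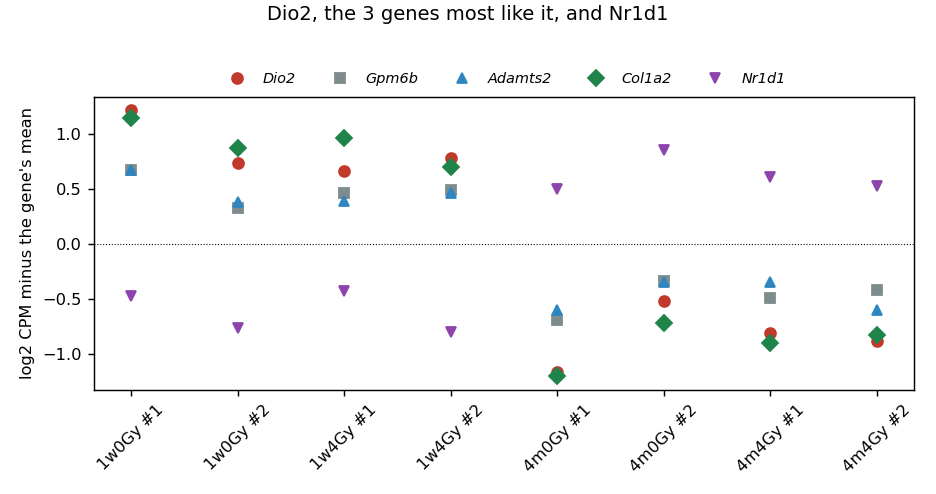
Log2 CPM of Dio2, of Gpm6b, Adamts2, and Col1a2, and of Nr1d1 in the 8 samples, each minus the gene's mean over the samples. Dio2 and the 3 genes most like it lie above 0 in all 1w samples and below 0 in all 4m samples, and Nr1d1 lies on the other side of 0 in each of them.

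The genes most like Dio1 were Slc35a1 (r 0.989), a transporter of sialic acid into the Golgi, Aldh16a1 (r 0.983), and the lysosomal galactosidase Galc (r 0.975). Those most like Dio3 were Fgf1 (r 0.981), Igfbp3 (r 0.979), and the proton pump subunit Atp6v1h (r 0.973), at Dio3 counts of 2 to 17. Thrsp was most like Tmem150a (r 0.992), Cd248 (r 0.970), and Fbln1 (r 0.962). For Thra these were Sncaip, Dph7, and Ano10 (r between 0.945 and 0.949), for Thrb Tmtc2, Hps6, and Gfm2 (r between 0.938 and 0.951), and for Hr Irf5, AABR07054362.1, and Tk1 (r between 0.942 and 0.952).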

How the data were processed

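RNA-Seq was performed by the authors on thyroid RNA of 8 rats, 2 per group, with mapping by HISAT2 2.2.1 and counting by featureCounts 2.0.0. The genome build and the strand setting are not given in the sources used here. The authors deposited raw counts per transcript for 54991 transcripts. The deposited RPKM, scaled to length and library, was not used for any test. The deposited TPM, scaled to length within a sample, was used only as an alternative in the ratio tests. Here the transcript with the highest summed count was taken for each gene, since transcripts of a gene share reads. Tests were run in R 4.3.3 using edgeR 4.0.16 (TMM, filterByExpr with a minimum count of 10, the robust quasi-likelihood fit, Benjamini-Hochberg adjustment) and DESeq2 1.42.0 as an alternative, and were tested on simulated data. Irradiation at each age and age in the sham groups were fitted on 4 samples, the others on all 8. Replicates differed by more than counting noise (chi-square per degree of freedom 8.44 to 17.3), and this spread between 2 samples may be partly technical. The chi-square is 1 value per group over all genes compared, so it does not show what limits the precision of a single gene. For Dio2, with raw counts of 33 to 57 at 4 months, and Dio3, with 2 to 17, the depth limits it as well. The members, gene lists, and alternatives were chosen with earlier results of these data known. Named by rule were the members, Cdkn1a, the overlapping genes, the 3 genes most like each member with a mean of at least 1 CPM, and the called members of each list or, with none called, the 2 that differed most. Other genes were named outside this rule, among them Rxra, Rxrb, Ncor1, Klf9, Crym, Ttr, Fasn, Scd, and single cell type markers. Other alternatives were DESeq2's size factors, other filters, summed or longest transcripts, the replicate number as a block, a fit on all samples, and leaving out each sample. Chosen after seeing the data were the fit without the robust setting and the crossed block. Dio3os, antisense to Dio3, was not analysed here.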

Additional observations from a re-analysis of the deposited data

How the results depend on the processing

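The fall of Dio2 with age over both doses kept its direction and its call under all 16 alternatives. The number of members called for irradiation and for the interaction stayed at 0. With age over both doses it was 2 with the DESeq2 Wald test and with no filter, the added one being Dio1, and 1 to 2 when each sample was left out. In the sham groups it was 3 with DESeq2 and with no filter (Dio1 and Thrsp added), 0 with summed transcripts and without the robust setting, and 0 to 2 when each sample was left out. The settings that added members also called more of all genes. Over both doses it was 1046 of 15684 with DESeq2 and 831 of 22179 with no filter, against 669 of 15684. In the sham groups it was 346 of 15364 with DESeq2 and 506 of 21241 with no filter, against 163 of 15364. The causes were not tested.

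The number of all genes called depended more on the setting. For irradiation at 1 week (1 gene), irradiation at 4 months (3), the interaction (0), irradiation over both ages (2), age in the sham groups (163), and age over both doses (669), DESeq2 called 22, 11, 26, 11, 346, and 1046. With no filter 5, 81, 6, and 506 genes were called for irradiation at 1 week, irradiation at 4 months, the interaction, and age in the sham groups. Summed transcripts gave 0, 0, and 27 for irradiation at 1 week, irradiation at 4 months, and age in the sham groups, and the fit without the robust setting gave 0, 0, and 1 for irradiation at 1 week, at 4 months, and over both ages. With at least 10 counts in every sample 1 gene was called for irradiation over both ages, and in the fit on all 8 samples 1 for irradiation at 4 months. Leaving out each sample gave 2 to 61, 3 to 123, 0 to 22, 1 to 5, 12 to 744, and 292 to 666 genes in the order of the 6 comparisons.

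The replicate numbers did not pair the samples, since the deviations of same-numbered samples correlated at -0.231 to 0.152 between groups. With the replicate number as a block 23, 59, and 13 genes were called for irradiation at 1 week, irradiation at 4 months, and age in the sham groups, and 0 members in the last (Dio2 adjusted p 0.115). With the crossed block, 340 genes and 2 members were called for age in the sham groups.

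Some uncalled log2 fold changes changed sign. Leaving out 1 sample moved that of irradiation at 1 week between -0.29 and 0.13 for Dio1 and between -0.25 and 0.04 for Hr. For irradiation at 4 months the ranges were -0.16 to 0.24 for Dio1, -0.34 to 0.31 for Dio2, -0.01 to 0.35 for Dio3, -0.21 to 0.01 for Thra, -0.18 to 0.34 for Hr, and -0.02 to 0.17 for Thrsp. For the interaction they were -0.09 to 0.36 for Dio1, -0.06 to 0.58 for Dio2, -0.71 to 1.68 for Dio3, and -0.07 to 0.45 for Hr. For irradiation over both ages they were -0.10 to 0.09 for Dio1, -0.14 to 0.43 for Dio3, -0.15 to 0.03 for Thrb, -0.13 to 0.07 for Hr, and -0.17 to 0.0019 for Thrsp. That of Dio1, at -0.00012, was also 0.0021 with no filter, 0.0022 with at least 10 counts, and 0.0033 with the longest transcript. With age the ranges were -0.20 to 0.02 for Thra and -0.51 to 0.01 for Hr in the sham groups, and -0.04 to 0.08 for Thra and -0.04 to 0.17 for Thrb over both doses. The Dio1:Dio2 log2 ratio between doses moved between -0.32 and 0.59, and the Thra:Thrb log2 ratio between ages between -0.15 and 0.0042.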
